A study of Mus musculus with 9 samples.

Results

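The genes described are 9 members of the p53 pathway and of the apoptosis machinery that were given as a list: Trp53, Cdkn1a, Mdm2, Ccng1, Bax, Apaf1, Polk, Perp and Trp53inp1. Members were all probe sets whose annotation names exactly 1 of these symbols, which gave 14 probe sets for 7 genes, of 22626 probe sets tested and 12393 genes measured in all. No probe set is annotated to Trp53 or Bax in the table used here, in which 1555 probe sets have no symbol listed; both genes were not analysed, and the level of the p53 transcript itself is not reported. Cdkn1a, Mdm2, Apaf1, Polk and Trp53inp1 had 2 probe sets each, Ccng1 had 3 and Perp had 1.

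Transcripts were measured in whole mouse embryos at 9.5 days post coitum on 9 Affymetrix arrays in 5 genotype groups. The Notch1 null group (2 arrays) was homozygous for the targeted allele Notch1tm1Con and the Notch1 het group (1 array) carried 1 copy of it; Notch1 encodes a receptor of the Notch pathway. The Dll3 null group (2 arrays) was homozygous for the targeted allele Dll3neo and the Dll3 het group (2 arrays) carried 1 copy of it; Dll3 encodes a Notch ligand. The wild type group (2 arrays) carried neither allele. The labels name the C57BL/6J strain for 1 Notch1 null array only, and they do not say whether an array holds 1 embryo or a pool, or whether replicates come from separate litters. The p-values therefore reflect array-to-array spread alone, and that spread may be technical. In whole embryos, fewer cells of a type and less RNA per cell cannot be told apart.

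p53 is a transcription factor that is held at a low level by Mdm2, a ubiquitin ligase that is itself a p53 target, and that accumulates after DNA damage and other stress. It then raises genes that halt the cell cycle, such as Cdkn1a, and genes that promote mitochondrial apoptosis, in which cytochrome c released from mitochondria binds Apaf1 and forms the apoptosome that activates caspase 9. Early mouse embryos are known to be sensitive to an excess of p53: loss of Mdm2 is lethal before this stage unless p53 is removed as well.

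The deposited values are ratios of a probe set to 1 number of its own, which is its median over the 9 arrays for all 14 member probe sets. They show differences between arrays and not how abundant a transcript is, so levels are not compared between genes, and the marker genes of the whole embryo could not be checked for presence. A difference is given as log2 of a mutant group over the group it is set against ± the standard error (SE) of a limma fit over all probe sets and all 9 arrays. It is said to pass where its p, adjusted by Benjamini-Hochberg over all 22626 probe sets of a comparison, is under 0.05.

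Arrays of the same genotype correlated over all probe sets at 0.651 to 0.804, and arrays of different genotypes at 0.426 to 0.743. The added control RNA dap had a mean ratio of 2.68 to 5.41 in Notch1 null, 1 in Notch1 het, 0.382 to 0.404 in Dll3 null, 0.395 to 0.421 in Dll3 het and 7.07 to 9.91 in wild type. It thus parts wild type from every mutant group, and Notch1 null from both Dll3 groups. Its part in the differences below was not tested, and other added controls are not reported here. Replicate 1 of Notch1 null, Notch1 het, Dll3 null and Dll3 het had a female pattern of Xist and Eif2s3y, and the other 5 arrays, both wild-type arrays included, had a male one.

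The windows of 250 bases before an annotated start are shown for the 3 genes of which a probe set passed against wild type, and for Cdkn1a, the textbook p53 target, of which none passed. They are RefSeq sequences of build GRCm38.p6 on the gene's strand. Capitals mark the p53 decamer, the 10-base unit of which p53 binds a pair, and the core ACGTG of the hypoxia response element, each searched on both strands; the window of the upstream Polk start holds neither.
Ccng1, chr11:40755287-40755536, minus strand: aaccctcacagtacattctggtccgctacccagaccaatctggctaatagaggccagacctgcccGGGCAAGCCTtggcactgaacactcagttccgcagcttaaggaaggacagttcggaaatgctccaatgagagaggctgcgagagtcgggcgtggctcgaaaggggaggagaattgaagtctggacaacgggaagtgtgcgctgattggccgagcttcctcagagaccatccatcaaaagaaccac
Polk, upstream start, chr13:96542580-96542829, minus strand: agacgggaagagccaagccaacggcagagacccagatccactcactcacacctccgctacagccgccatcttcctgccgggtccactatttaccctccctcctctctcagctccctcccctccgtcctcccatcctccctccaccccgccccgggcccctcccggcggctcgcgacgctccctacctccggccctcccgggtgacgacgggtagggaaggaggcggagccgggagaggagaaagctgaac
Polk, internal start, chr13:96519188-96519437, minus strand: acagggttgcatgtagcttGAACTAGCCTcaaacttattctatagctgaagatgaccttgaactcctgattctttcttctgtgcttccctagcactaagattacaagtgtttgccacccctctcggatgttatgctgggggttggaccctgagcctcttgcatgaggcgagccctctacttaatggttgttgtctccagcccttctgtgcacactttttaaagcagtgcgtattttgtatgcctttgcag
Apaf1, chr10:91082744-91082993, minus strand: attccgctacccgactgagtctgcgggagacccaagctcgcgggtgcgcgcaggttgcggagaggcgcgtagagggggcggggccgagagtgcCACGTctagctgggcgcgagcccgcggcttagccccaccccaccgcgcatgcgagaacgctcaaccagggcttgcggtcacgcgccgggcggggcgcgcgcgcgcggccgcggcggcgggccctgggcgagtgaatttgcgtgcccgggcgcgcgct
Cdkn1a, upstream start, chr17:29090729-29090978, plus strand: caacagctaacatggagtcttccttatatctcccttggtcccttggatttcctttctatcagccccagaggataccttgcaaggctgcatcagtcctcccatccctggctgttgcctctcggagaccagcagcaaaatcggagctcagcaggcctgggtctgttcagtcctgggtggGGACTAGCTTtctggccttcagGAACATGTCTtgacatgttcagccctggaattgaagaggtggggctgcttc
Of the 7 such windows that the table holds for 5 of the member genes, 4 hold a p53 decamer, against 7.13% of the 32851 windows of all genes. They are those of Ccng1 (GGGCAAGCCT), of Mdm2 (GAACTTGCCT), of the upstream start of Cdkn1a (GGACTAGCTT and GAACATGTCT) and of an internal start of Polk (GAACTAGCCT). The ACGTG core, found in 16.6% of all windows, occurs once, in Apaf1 on the opposite strand. The core TGGGAA of the site of RBPJ, the DNA-binding partner of activated Notch, occurs in the window of the downstream Cdkn1a start only, and in 21.6% of all windows. These matches describe the letters of these windows. Perp and Trp53inp1 were not in the table.

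In Notch1 null embryos 4 of the 14 member probe sets passed against wild type, all higher, in 3 genes: both probe sets of Polk, 1 of 2 of Apaf1 and 1 of 3 of Ccng1. That is 28.6% of the member probe sets, where 9.45% of all tested probe sets passed in either direction and 3.46% passed as higher. The genes best known as p53 targets in cell cycle arrest and feedback, Cdkn1a and Mdm2, did not pass. All 14 differences were above 0, from 0.0016 to 0.74 on the log2 scale with a median of 0.31, while the median of all probe sets was -0.03. The 2 Notch1 null arrays lay above both wild-type arrays at 10 of the 14 probe sets and below them at 0, where 21.2% of all probe sets lay above and 34% below. The 14 probe sets stand for 7 genes, which were chosen with earlier results of these data known. These shares are therefore a description and no test of the set.

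Polk encodes DNA polymerase kappa, a translesion enzyme that copies past damaged bases and whose gene is a p53 target in mouse. Its probe set 1449483_at had ratios of 1.529 and 1.923 in Notch1 null, 1.34 in Notch1 het, 0.905 and 0.884 in Dll3 null, 0.961 and 0.965 in Dll3 het, and 1 and 1.058 in wild type. The Notch1 null arrays were the highest of the 9, the Notch1 het array came next, and no other array reached it. Against wild type it rose 1.67-fold in Notch1 null (log2 0.74 ± 0.12 SE, adjusted p = 0.00894), the highest change among the members. The call was lost when Notch1_null replicate 2 was left out (adjusted p = 0.071), and likewise for wild_type replicate 1 (0.0642) or replicate 2 (0.0573), while the log2 change lay between 0.57 and 0.78 in these fits.

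The other Polk probe set, 1419501_at, had ratios of 1.132 and 1.264 in Notch1 null, 1.162 in Notch1 het, 0.948 and 1.017 in Dll3 null, 0.99 and 1 in Dll3 het, and 0.874 and 0.875 in wild type. Here the wild-type arrays were the lowest of all 9 and the Notch1 het array lay between the Notch1 null arrays. It rose 1.37-fold in Notch1 null against wild type (log2 0.45 ± 0.11 SE, adjusted p = 0.0285). The call ended without Notch1_null replicate 1 (adjusted p = 0.0609) or replicate 2 (0.18), without wild_type replicate 1 (0.113) or replicate 2 (0.122), after quantile normalization (0.056), and in the fits of only the arrays of both groups or of the 5 wild-type and Notch1 arrays (0.0529 in each).

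Apaf1 encodes the scaffold of the apoptosome. Its probe set 1450223_at had ratios of 1.325 and 1.2 in Notch1 null, 1 in Notch1 het, 1.011 and 0.935 in Dll3 null, 1.068 and 0.95 in Dll3 het, and 0.862 and 0.858 in wild type. The Notch1 null arrays were again the highest of the 9 and the wild-type arrays the lowest. It rose 1.47-fold against wild type (log2 0.55 ± 0.11 SE, adjusted p = 0.0169). The call ended without Notch1_null replicate 1 (adjusted p = 0.0949) or replicate 2 (0.0726) and without wild_type replicate 1 (0.0832) or replicate 2 (0.0951).

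The other Apaf1 probe set, 1452870_at, had ratios of 1.269 and 1.357 in Notch1 null, 0.957 in Notch1 het, 1 and 0.893 in Dll3 null, 0.993 and 0.733 in Dll3 het, and 1.065 and 1.004 in wild type. The Notch1 null arrays lay above all others here too, but the wild-type arrays came next and were not the lowest. Its log2 difference of 0.34 ± 0.15 from wild type did not pass (adjusted p = 0.193), with a 95% interval from 0.01 to 0.67. Averaged over both probe sets, Apaf1 passed in Notch1 null (log2 0.45, adjusted p = 0.0328).

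Ccng1 encodes cyclin G1, a p53 target that brings a phosphatase to Mdm2. Its probe set 1450017_at had ratios of 1.147 and 1.301 in Notch1 null, 1.106 in Notch1 het, 1.084 and 0.985 in Dll3 null, 1 and 0.861 in Dll3 het, and 0.918 and 0.751 in wild type. The Notch1 null arrays were the highest of the 9, but a Dll3 het array lay between the wild-type arrays. It rose 1.47-fold in Notch1 null against wild type (log2 0.56 ± 0.14 SE, adjusted p = 0.035). This was the least stable of the member calls: it ended in 9 of 20 alternatives, among them quantile normalization (adjusted p = 0.0661), embryo sex in the fit (0.0819), only the arrays of both groups (0.06), the mean of the 3 probe sets (0.0615) and the fits without Notch1_null replicate 1 (0.0815) or replicate 2 (0.22) and without wild_type replicate 1 (0.0597) or replicate 2 (0.205).

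The other Ccng1 probe sets did not pass and differed in order. Probe set 1450016_at had ratios of 1 and 1.356 in Notch1 null against 0.874 and 0.823 in wild type (log2 0.46 ± 0.19, adjusted p = 0.185), with no overlap. Probe set 1420827_a_at had ratios of 1.074 and 1.453 in Notch1 null, 0.704 in Notch1 het, and 0.998 and 1.17 in wild type, so the Notch1 null and wild-type arrays overlapped (log2 0.21 ± 0.15, adjusted p = 0.46). All 3 Ccng1 probe sets were highest in Notch1 null replicate 2, as were the member probe sets 1449483_at and 1419501_at of Polk, 1452870_at of Apaf1, 1424638_at of Cdkn1a, Perp and 1416926_at of Trp53inp1.

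Cdkn1a encodes p21, an inhibitor of cyclin-dependent kinases and the main effector of p53 in cell cycle arrest. Its probe set 1421679_a_at had ratios of 0.931 and 1.041 in Notch1 null, 0.962 in Notch1 het, 1.038 and 0.875 in Dll3 null, 1.077 and 1.361 in Dll3 het, and 0.967 and 1 in wild type. The wild-type arrays lay between the Notch1 null arrays, and the log2 difference was 0.0016 ± 0.14 with a 95% interval from -0.32 to 0.32. Probe set 1424638_at had ratios of 1.034 and 1.134 in Notch1 null against 1.008 and 1.013 in wild type, a log2 difference of 0.10 ± 0.11 (interval -0.15 to 0.35). Its range over all 9 arrays, 1.31-fold, was the smallest of the members, and only 14.3% of all probe sets had an equal or smaller SD. Both Cdkn1a intervals overlap those of Polk 1419501_at (0.22 to 0.69), Ccng1 1450017_at (0.25 to 0.87) and Apaf1 1450223_at (0.30 to 0.80). Among the member probe sets that passed, only the interval of Polk 1449483_at (0.46 to 1.02) lies above both. Differences between genes were not tested.

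Mdm2 had ratios of 0.995 and 1.08 in Notch1 null, 1.298 in Notch1 het, 1 and 0.972 in Dll3 null, 1.027 and 0.91 in Dll3 het, and 1.036 and 0.921 in wild type at probe set 1423605_a_at. The single Notch1 het array was the highest and the other genotypes overlapped (Notch1 null minus wild type, log2 0.09 ± 0.11, interval -0.17 to 0.34). At probe set 1427718_a_at Mdm2 had 0.87 and 1 in Notch1 null, 1.009 in Notch1 het, 0.818 and 1.084 in Dll3 null, 1.178 and 1.052 in Dll3 het, and 0.782 and 0.749 in wild type. The wild-type arrays were the lowest there, and none of the 4 mutant groups passed against them.

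Perp, a membrane protein of desmosomes that is also a p53 target in apoptosis, had ratios of 1 and 1.122 in Notch1 null, 1.121 in Notch1 het, 0.971 and 0.837 in Dll3 null, 0.933 and 1.116 in Dll3 het, and 0.995 and 1.026 in wild type. Both wild-type arrays lay within the range of the Notch1 null arrays or below it (log2 0.07 ± 0.13, adjusted p = 0.822). Trp53inp1, a stress-induced nuclear protein that promotes p53 phosphorylation, had ratios at probe set 1416926_at of 1.065 and 1.17 in Notch1 null, 0.697 in Notch1 het, 1.08 and 0.918 in Dll3 null, 1 and 0.701 in Dll3 het, and 0.986 and 1.003 in wild type. Its difference between Notch1 null and wild type was 0.17 ± 0.16 (adjusted p = 0.617). At probe set 1416927_at the wild-type arrays, at 0.873 and 0.799, were the lowest of the 9, against 1 and 1.102 in Notch1 null (log2 0.33 ± 0.14, adjusted p = 0.196).

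**Figure D1:**
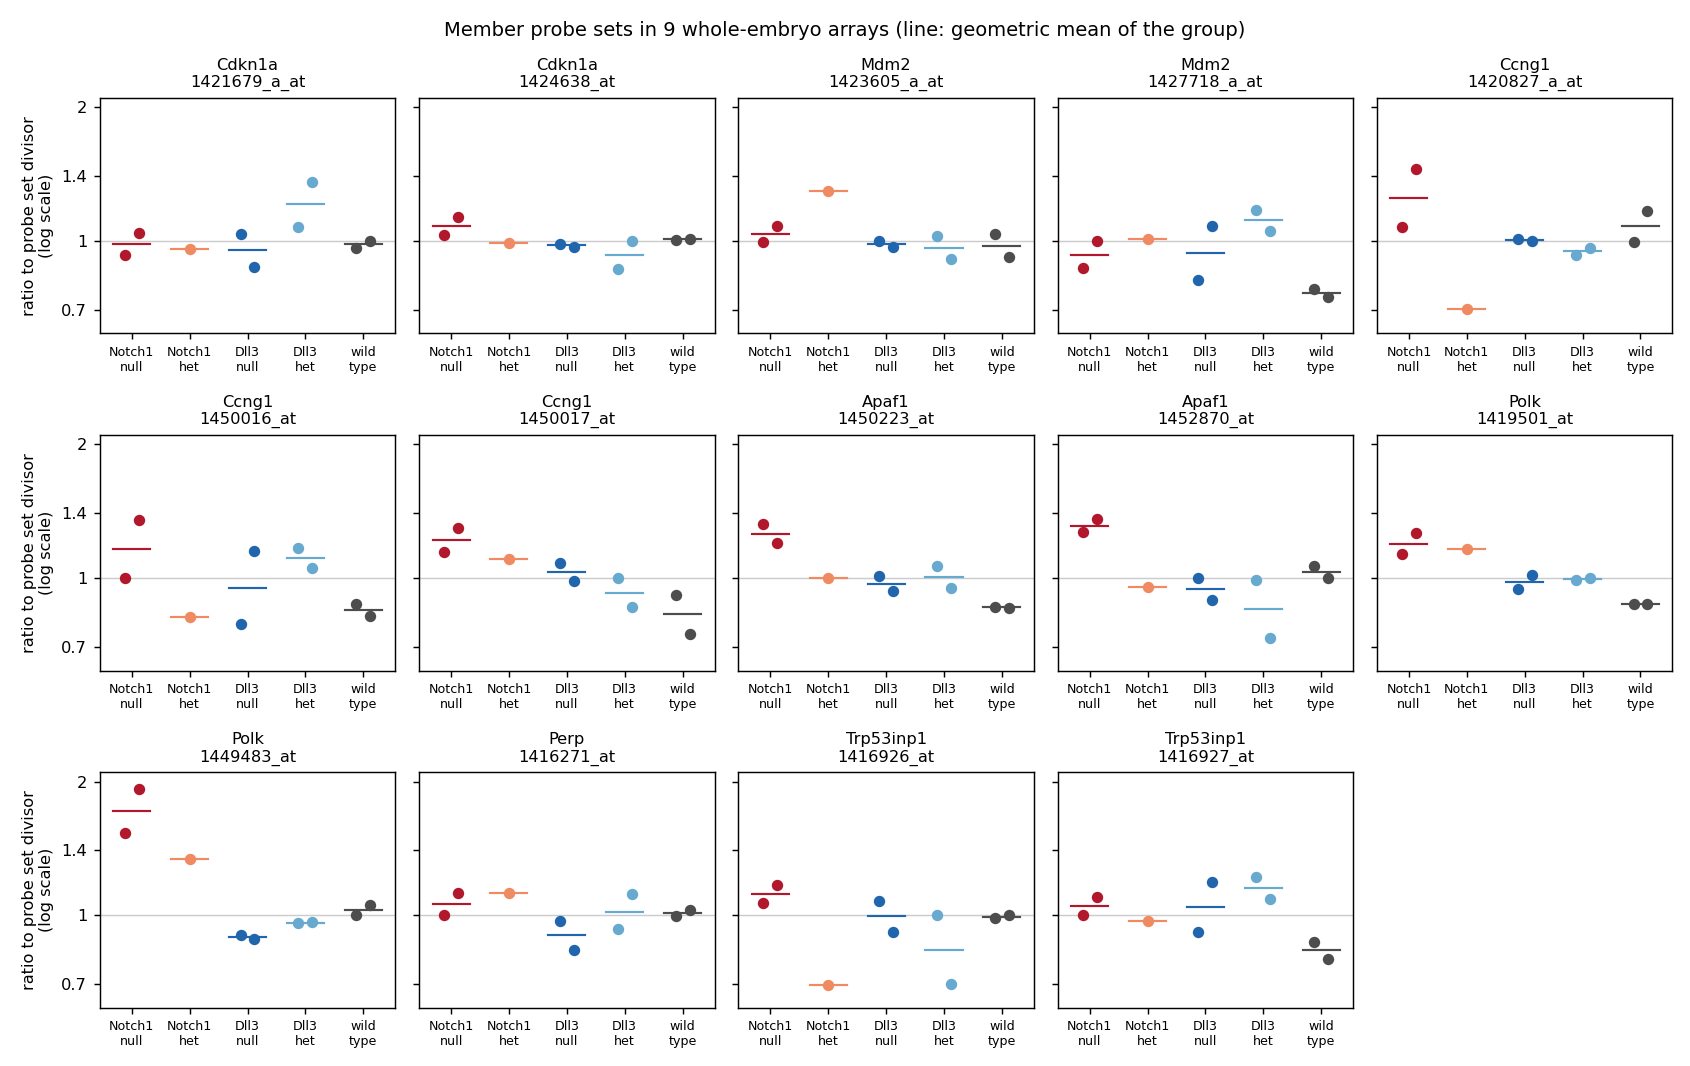
Each panel shows 1 member probe set and each point 1 array, by genotype, with the ratio to the probe set's own divisor on a log axis; lines are geometric means of a group. Polk 1449483_at reaches 1.529 and 1.923 in Notch1 null, against 1 and 1.058 in wild type, while at Cdkn1a 1421679_a_at these groups overlap.

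The other genotypes were set against the same wild-type arrays, so the 4 comparisons share them. In Notch1 het, a single array assumed to vary like the other groups, 0 of 14 member probe sets passed in the limma fit, 6 of them with an unadjusted p under 0.05, where 2.76% and 19.4% of all probe sets did. The 6 were not of 1 direction: Polk was higher at both probe sets (log2 0.41 ± 0.13 and 0.38 ± 0.15), Mdm2 at 1423605_a_at (0.41 ± 0.14) and Ccng1 at 1450017_at (0.41 ± 0.17), while Ccng1 at 1420827_a_at (-0.62 ± 0.18) and Trp53inp1 at 1416926_at (-0.51 ± 0.20) were lower. The lowest adjusted p was 0.107, at Ccng1 1420827_a_at. Ccng1 thus had 1 probe set above and 2 below wild type on this array, with differences between 0.41 and -0.62.

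In Dll3 null 0 of 14 passed and 2 had an unadjusted p under 0.05, where 0.0884% and 10.2% of all probe sets did. They were Ccng1 1450017_at (log2 0.32 ± 0.14) and Trp53inp1 1416927_at (0.32 ± 0.14), with adjusted p = 0.48 and 0.484. In Dll3 het 0 of 14 passed and 2 had an unadjusted p under 0.05, where 0.486% and 16% did: Mdm2 1427718_a_at (0.54 ± 0.15, adjusted p = 0.122) and Trp53inp1 1416927_at (0.46 ± 0.14, adjusted p = 0.158). Both probe sets were lowest in wild type. Intervals for Cdkn1a in Dll3 null ran from -0.36 to 0.27 and from -0.30 to 0.21.

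**Figure D2:**
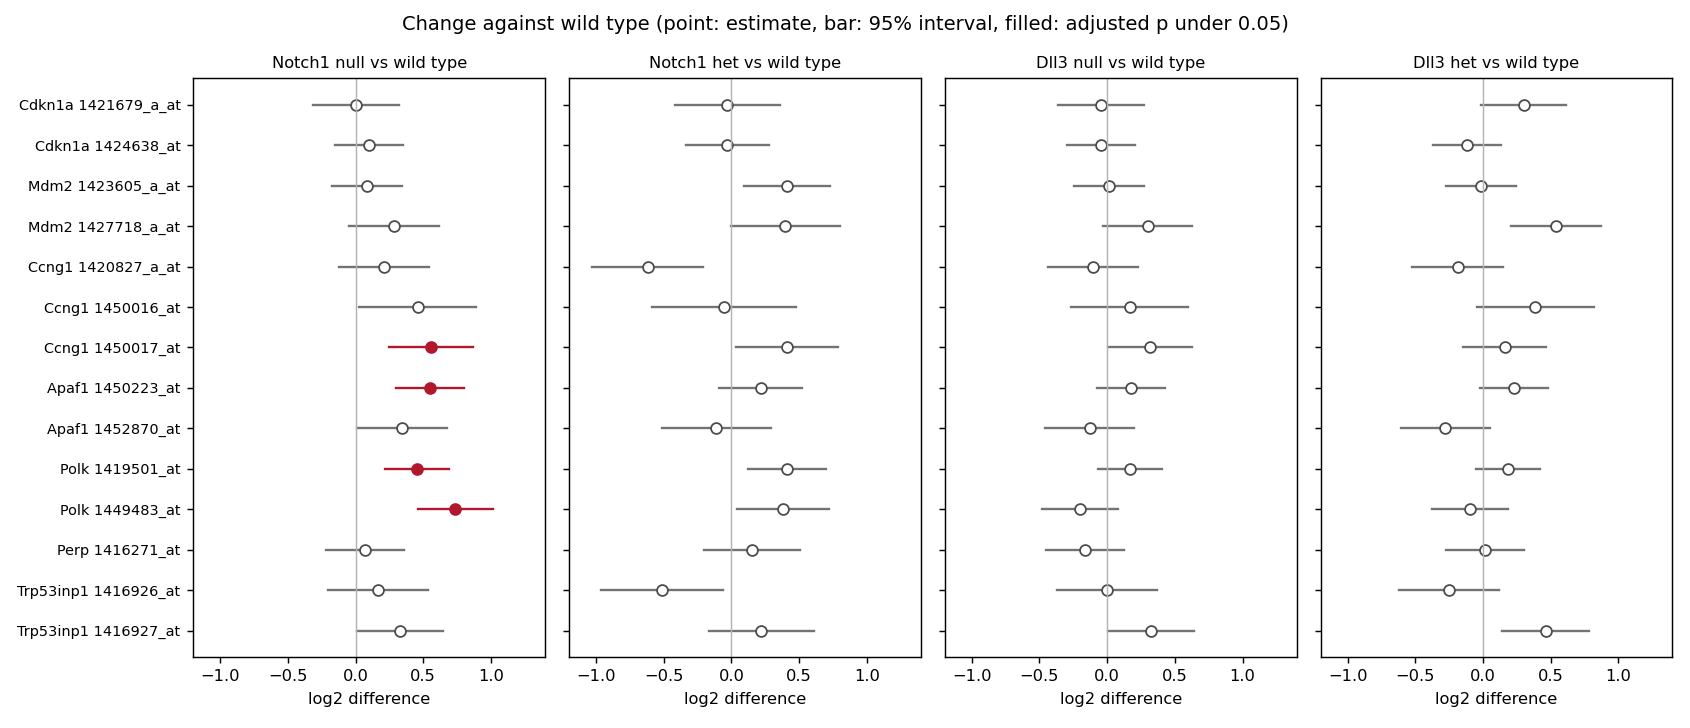
Points are log2 differences from wild type of the 14 member probe sets in each mutant group, and bars are 95% intervals; filled points have an adjusted p under 0.05. The 4 filled points are Ccng1 1450017_at, Apaf1 1450223_at and both Polk probe sets, all in Notch1 null.

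Notch1 null was then set against Dll3 null, a comparison that uses no wild-type array except for the spread. The control RNA dap parts these groups as well, at 2.68 to 5.41 in Notch1 null and 0.382 to 0.404 in Dll3 null. Of 14 member probe sets 1 passed, where 5.74% of all probe sets passed in either direction and 2.46% as higher. It was Polk 1449483_at, at 1.529 and 1.923 in Notch1 null against 0.905 and 0.884 in Dll3 null, a 1.92-fold difference (log2 0.94 ± 0.12 SE, adjusted p = 0.00589). The call ended without Notch1_null replicate 2 (log2 0.77, adjusted p = 0.0603) and in a fit of only these 4 arrays (0.0736). The other Polk probe set differed by 0.28 ± 0.11 (adjusted p = 0.158), and the Apaf1 probe sets by 0.38 ± 0.11 (0.0855) and 0.47 ± 0.15 (0.0978), all 3 with no overlap. At 8 of the 14 member probe sets the Notch1 null arrays lay above both Dll3 null arrays, as they did at 17.4% of all probe sets. The mean of both Polk probe sets passed (log2 0.61, adjusted p = 0.00966). The highest difference of the remaining 10 was 0.31, at Ccng1 1420827_a_at.

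Against the single Notch1 het array, 0 of 14 passed in Notch1 null and 6 had an unadjusted p under 0.05, where 1.78% and 17.1% of all probe sets did. The widest differences were those of Ccng1 1420827_a_at, with 1.074 and 1.453 in Notch1 null against 0.704 in Notch1 het (log2 0.83 ± 0.18, adjusted p = 0.0596), and of Trp53inp1 1416926_at, with 1.065 and 1.17 against 0.697 (0.68 ± 0.20, adjusted p = 0.125). Polk 1419501_at differed by 0.04 ± 0.13 and Polk 1449483_at by 0.36 ± 0.15 (adjusted p = 0.273). Dll3 null against Dll3 het gave 0 of 14, with 1 unadjusted p under 0.05, where 0% and 5.31% of all probe sets did. That probe set was Cdkn1a 1421679_a_at, at 1.038 and 0.875 in Dll3 null against 1.077 and 1.361 in Dll3 het (log2 -0.35 ± 0.14, adjusted p = 0.897).

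**Figure D3:**
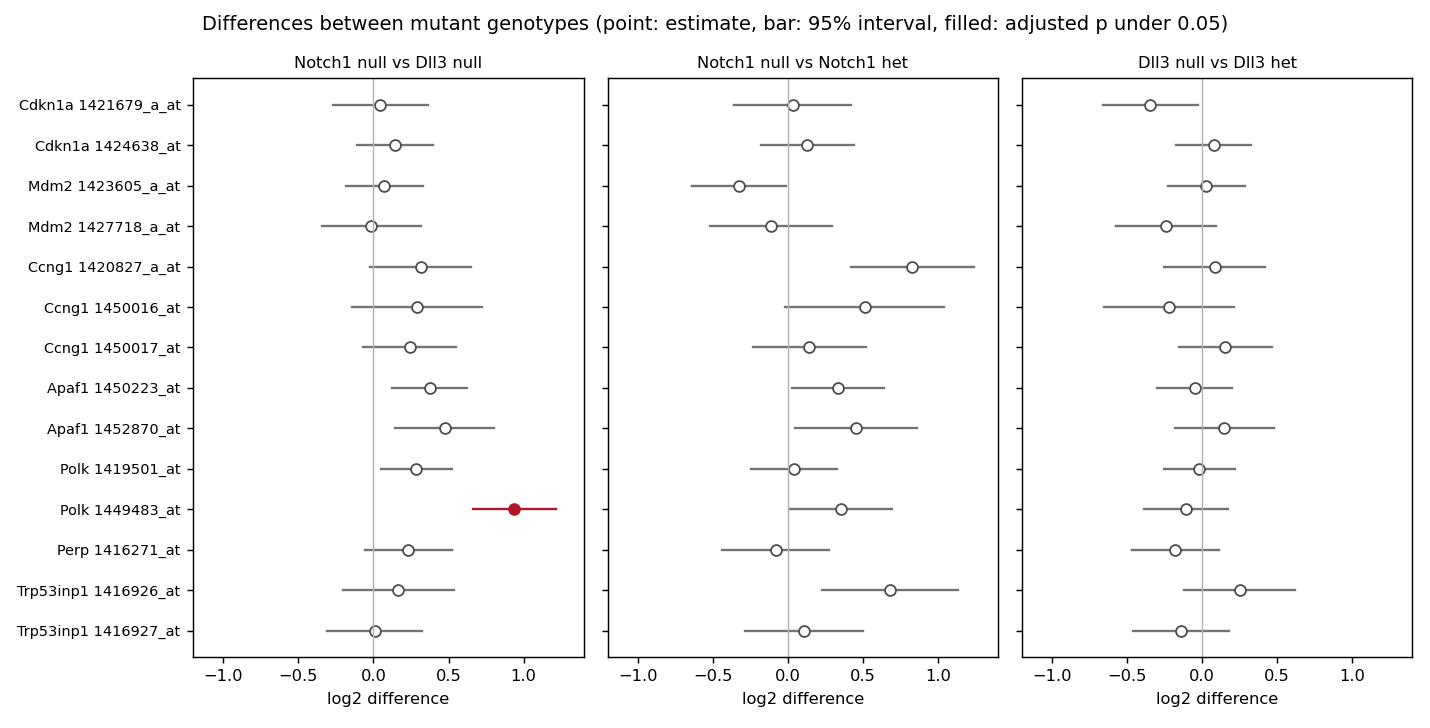
Points are log2 differences of the member probe sets between mutant genotypes and bars are 95% intervals; filled points have an adjusted p under 0.05. Only Polk 1449483_at in Notch1 null against Dll3 null is filled, at 0.94.

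Other genes of the pathway were taken from lists of p53 regulators, p53 targets, the BCL2 family, caspases and their partners, death receptors, translesion synthesis and relatives of the members, with 107 of 122 listed genes measured by 191 probe sets. In Notch1 null against wild type, 7 of these probe sets were higher and 21 lower, in 6 and 14 genes, which is 14.7% of them where 9.45% of all probe sets passed. Their median was -0.04, beside -0.03 over all probe sets. The lists were chosen with earlier results of these data known, so their shares here and below are a description. The count fell to 8 without Notch1_null replicate 2, 11 without wild_type replicate 1, 7 without wild_type replicate 2 and 17 without Notch1_null replicate 1.

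Of the apoptosome, caspases and their inhibitors, 17 of 19 genes were measured, and 7 of 34 probe sets were lower and 0 higher, in 5 genes. That is 20.6% of the list, beside 9.45% of all probe sets. The partner that activates Apaf1, cytochrome c (Cycs), fell at 2 of its 3 probe sets, unlike Apaf1 itself. At 1422484_at Cycs had 0.672 and 0.457 in Notch1 null against 1.02 and 1 in wild type (log2 -0.87 ± 0.16, adjusted p = 0.0135), and at 1422483_a_at 0.673 and 0.551 against 1 and 0.962 (-0.69 ± 0.12, adjusted p = 0.01). Cycs was lower at both against Dll3 null too (adjusted p = 0.0159 and 0.00875). Dffb, the nuclease that cuts DNA into nucleosome ladders, fell at 1 of 2 probe sets (-0.71 ± 0.14), Htra2, a mitochondrial protease, at 1 of 2 (-0.67 ± 0.13), Casp8, the initiator caspase of death receptors (-0.57 ± 0.13), and Endog, a mitochondrial nuclease, at 2 of 2 (-0.56 ± 0.12 and -0.46 ± 0.12). The Endog calls were the least firm of these: that of 1438317_a_at ended in 14 of 20 alternatives, among them median centring (adjusted p = 0.0627) and quantile normalization (0.11), and that of 1421097_at in 7. The suffixes of the Htra2 probe set and of some Siva1 ones below mark probes that can match other transcripts, so these values are less certain.

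Of the BCL2 family, which sets the permeability of the outer mitochondrial membrane, 14 of 16 genes were measured, and 1 of 34 probe sets was higher and 2 lower. That is 8.82% of the list, near the 9.45% of all probe sets. Bnip3, a mitophagy receptor, had 3.418 and 3.595 in Notch1 null against 0.961 and 1 in wild type (log2 1.84 ± 0.10, adjusted p = 0.000119). The pro-apoptotic genes Bad (-0.81 ± 0.14, 1 of 2 probe sets) and Bak1, the partner of Bax in pore formation (-0.65 ± 0.13, 1 of 2), were lower. Averaged over its probe sets, Bak1 did not pass (log2 -0.31, adjusted p = 0.0664). Of death receptor signalling, 10 of 11 genes were measured, and 2 of 16 probe sets (12.5%, beside 9.45% of all) were lower and 0 higher. They were Casp8 and the adaptor Traf2 (-0.45 ± 0.11, adjusted p = 0.0309).

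Of p53 targets in arrest, repair and metabolism, 26 of 28 genes were measured, and 1 of 38 probe sets was higher and 4 lower. That is 13.2% of the list, beside 9.45% of all probe sets. Ddit4, an inhibitor of mTOR signalling that hypoxia and p53 both induce, had 6.027 and 6.755 in Notch1 null against 1.315 and 0.672 in wild type. Plk3, a stress kinase, had 0.713 and 0.745 against 2.047 and 1.491 (log2 -1.26 ± 0.17, adjusted p = 0.00425), and the wild-type arrays were the highest of all 9. Rprm, which arrests cells in G2, was lower (-0.78 ± 0.15), and so was cyclin D1 (Ccnd1), a driver of G1, at 2 of its 3 probe sets (-0.68 ± 0.14 and -0.55 ± 0.11). Of p53 targets in apoptosis, 12 of 16 genes were measured, and 4 of 23 probe sets (17.4%, beside 9.45% of all) were lower and 0 higher. All 4 of them were of 1 gene, Siva1, a death domain protein (log2 -0.55 to -0.61, adjusted p = 0.0151 to 0.0236).

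Of p53 regulators, 13 of 16 genes were measured, and 1 of 25 probe sets was higher and 0 lower. That is 4% of the list, below the 9.45% of all probe sets. Atr, the kinase of the replication stress checkpoint that phosphorylates p53, had 1.588 and 1.509 in Notch1 null, 1.022 in Notch1 het, 1 and 1.023 in Dll3 null, 0.914 and 0.863 in Dll3 het, and 0.786 and 0.769 in wild type (Notch1 null minus wild type, log2 0.99 ± 0.10, adjusted p = 0.00132). Its wild-type arrays were the lowest of the 9, as at Polk 1419501_at and Apaf1 1450223_at, and the call held in all 20 alternatives. Ppm1d, a phosphatase that ends the p53 response, had 0.781 and 0.773 in Notch1 null against 1 and 1 in wild type and did not pass (adjusted p = 0.0571).

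Polk was set beside its partners in translesion synthesis, of which 10 of 11 genes were measured, and 2 of 18 probe sets were higher and 2 lower. That is 22.2% of the list, beside 9.45% of all probe sets. Rev3l, the catalytic subunit of polymerase zeta, was higher at 1 of its 3 probe sets, with 1.313 and 1.36 in Notch1 null against 0.966 and 0.865 in wild type (log2 0.55 ± 0.11, adjusted p = 0.015), and the mean of the 3 did not pass (log2 0.24, adjusted p = 0.105). Hltf, which extends ubiquitin chains on PCNA, was higher at 1 of 3 (0.68 ± 0.11). Ube2a, the ubiquitin-conjugating enzyme that works with Rad18 on PCNA, was lower at both probe sets (-0.96 ± 0.12 and -0.61 ± 0.10). Among relatives of the members, all 13 genes were measured, and 2 of 19 probe sets were higher and 2 lower (21.1%, beside 9.45% of all). Ccng2, cyclin G2, the relative of Ccng1, was higher at both of its probe sets (0.68 ± 0.14 and 0.95 ± 0.13), and Cdkn1c, p57, of the same inhibitor family as Cdkn1a, was lower (-0.71 ± 0.12); Bak1 stands in this list too.

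**Figure D4:**
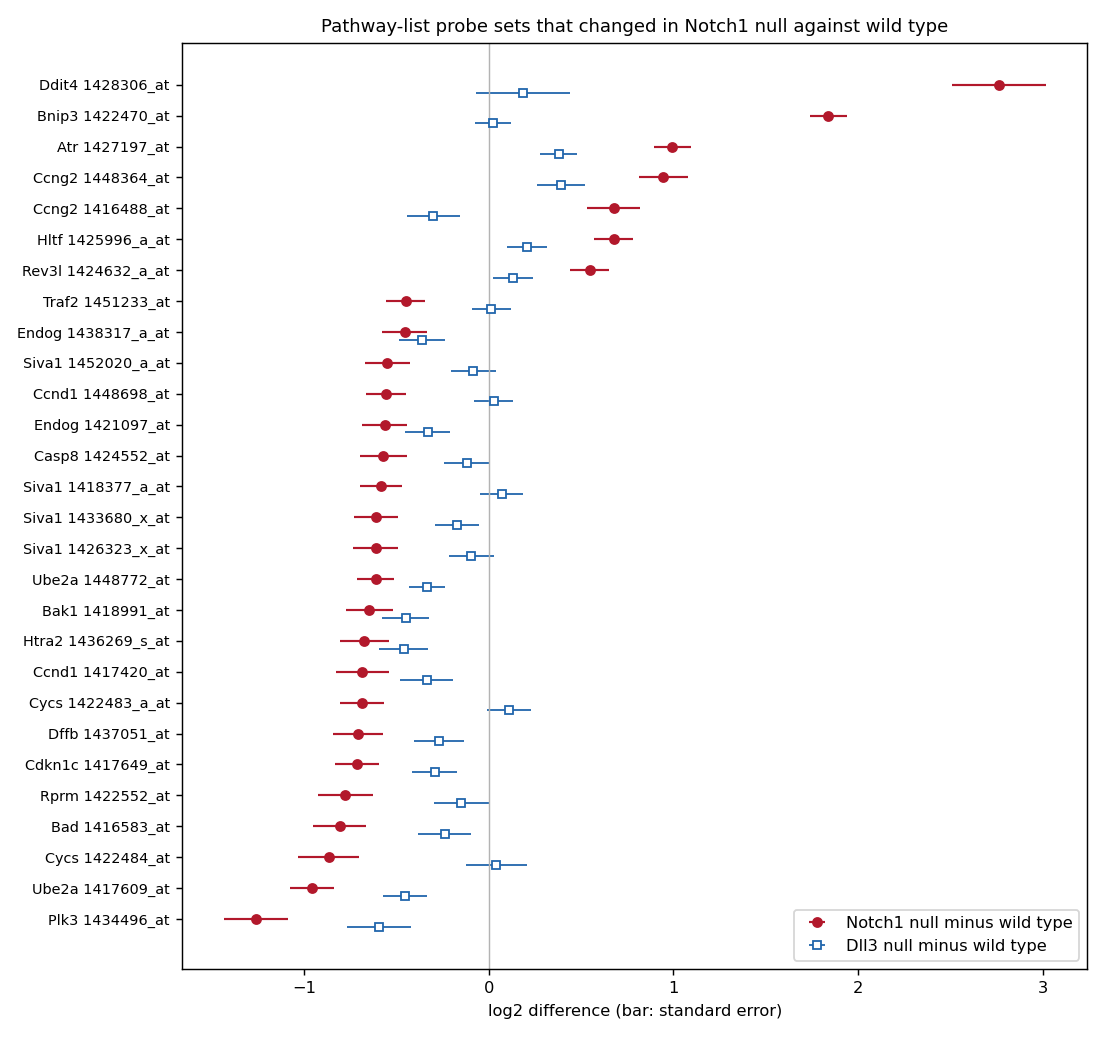
Red points are log2 differences of Notch1 null from wild type for the 28 pathway probe sets that passed in that comparison, blue squares are the differences of Dll3 null from the same wild-type arrays, and bars are standard errors. The red points run from Ddit4 at 2.76 to Plk3 at -1.26, and 0 of the blue squares passed.

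In Notch1 het against wild type, 3 of the 191 pathway probe sets were higher and 4 lower (3.66%, beside 2.76% of all). The 3 were all Hipk2, a kinase that phosphorylates p53, with 1.871 on the Notch1 het array against 0.865 and 0.871 in wild type at 1448631_a_at (adjusted p = 0.0217); 1 of the 3 probe sets can match other transcripts. The 4 were Birc6, a giant inhibitor of apoptosis (log2 -0.68 ± 0.14), the anti-proliferative gene Btg1 (-0.91 ± 0.13), Plk3 (-1.38 ± 0.21) and Ube2a (-0.92 ± 0.14); the last 2 of these were lower in Notch1 null as well, against the same wild-type arrays. Without wild_type replicate 1 or wild_type replicate 2, which sets 1 array against 1, none of these 7 Notch1 het calls held, while their directions did. The share of all probe sets that passed was also below 2.76% in every fit without 1 array. The call of Birc6 ended in 12 of 20 alternatives (averaged probe sets, log2 -0.44, adjusted p = 0.093). In Dll3 null and in Dll3 het 0 of the 191 passed against wild type. In Notch1 null against Notch1 het 8 were higher and 2 lower (5.24%, beside 1.78% of all). Those higher were Ddit4, Bnip3, both probe sets of Ccng2, Atr, Btg1, the BH3-only gene Bmf (log2 0.73 ± 0.15) and the membrane protein gene Emp1 (0.90 ± 0.16), and those lower were Hipk2 and the death receptor gene Tnfrsf21. Btg1 had 1.374 and 1.405 in Notch1 null against 0.691 in Notch1 het, and the wild-type arrays, at 1.343 and 1.25, lay close to Notch1 null. The Notch1 het array was also the lowest of the 9 at Bmf (0.662, with 0.938 and 1 in wild type) and Emp1 (0.656, with 1.092 and 1). It was the highest at Tnfrsf21 (1.655, with 1 and 1.094 in wild type), whose probe set can match other transcripts. The calls of Bmf, Emp1, Tnfrsf21, Hipk2, Atr, Btg1 and Ccng2 1416488_at ended after quantile normalization. In this comparison the Atr call ended in 13 of 20 alternatives, as did that of Bmf.

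In Notch1 null against Dll3 null 7 were higher and 12 lower (9.95%, beside 5.74% of all). Ddit4, Bnip3, both probe sets of Ccng2, Atr, Btg1 and Hltf were higher, and Cycs, Siva1, Traf2, Ccnd1, Rprm, Ube2a and Mcl1 were among those lower. Median centring ended the calls of Traf2, Rprm, Ube2a and Mcl1, among others (adjusted p = 0.0509 to 0.0554). Averaged over the probe sets of a gene, Mcl1 (log2 -0.31, adjusted p = 0.116), Ccnd1 (0.0512), Btg1 (0.0575) and Hltf (0.0646) did not pass. The Mcl1 probe set that passed can match other transcripts. Lower too were Birc5, survivin, an inhibitor of apoptosis (log2 -0.53, adjusted p = 0.0227), and Aen, a nuclease induced by p53, at 2 of its 3 probe sets (adjusted p = 0.04 and 0.0272). At Aen 1451186_at the wild-type arrays, at 0.776 and 0.676, were not above Notch1 null as a group, at 0.774 and 0.798. Dll3 null stood at 1.121 and 1.124 there. Both Aen calls ended after quantile normalization (adjusted p = 0.0767 and 0.0641).

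Marker lists of tissues and of the response to low oxygen were measured on the same arrays. The hypoxia list (17 of 18 genes) had a mean log2 ratio of 1.09 and 1.35 in Notch1 null, against -0.10 and -0.25 in wild type, with 31 of its 35 probe sets higher. Against Dll3 null, at -0.03 and 0.0007, 29 of the 35 were higher. Ddit4 and Bnip3 belong to this list as well. The neuron list (10 of 10) had -0.63 and -0.52 in Notch1 null, -0.44 in Notch1 het, 0.17 and -0.09 in Dll3 null, 0.07 and 0.06 in Dll3 het, and 0.48 and 0.33 in wild type, with 15 of 21 probe sets lower in Notch1 null than in wild type. The epithelium list (9 of 10) had 0.15 and 0.16 in Notch1 null against -0.07 and -0.02 in wild type (3 of 18 probe sets higher), and the cardiac muscle list (9 of 9) 0.19 and 0.26 against -0.08 and -0.06 (4 of 12 higher). The endothelium list (7 of 7) had 0.05 and 0.31 in Notch1 null against -0.06 and -0.04 in wild type (2 of 11 higher). In these 5 lists the Notch1 null arrays did not overlap the wild-type arrays, above them in 4 and below them in the neuron list. Of all single probe sets, 21.2% lay above and 34% below without overlap, and 3.46% passed as higher. The median log2 difference was 0.06 in the epithelium list, 0.30 in the cardiac muscle list and 0.18 in the endothelium list. The part of these 5 lists in the differences of Polk, Apaf1 and Ccng1 was not tested. The lists of primitive red cells (7 of 8), yolk sac endoderm (8 of 8), macrophages (6 of 6) and decidua and trophoblast (5 of 8) overlapped between Notch1 null and wild type.

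**Figure D5:**
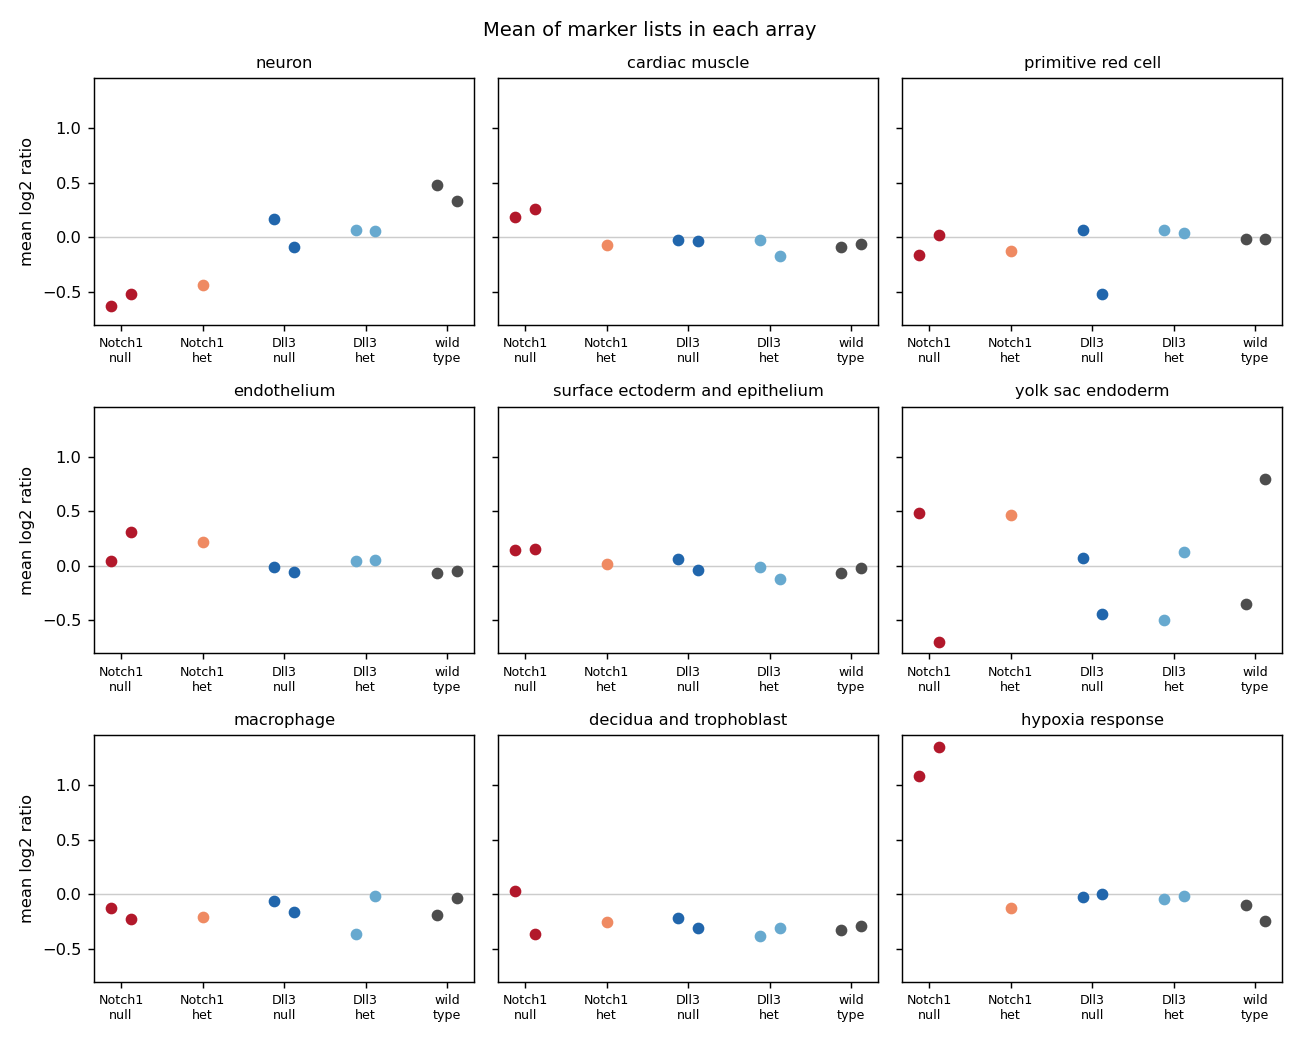
Each point is the mean log2 ratio of a marker list on 1 array, by genotype. The hypoxia list stands at 1.09 and 1.35 in Notch1 null, against -0.10 and -0.25 in wild type, and the neuron list at -0.63 and -0.52 in Notch1 null, against 0.48 and 0.33 in wild type.

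For each member probe set that passed, the 3 genes of most similar pattern were found among 12392 other genes by the Pearson correlation of log2 values over the 9 arrays. With so few arrays, which share their genotype groups, high values are found for many genes, and the correlations are a description. For Polk 1449483_at they were Krt8, a keratin of simple epithelia (r = 0.981), Wls (0.978) and Ttc3 (0.975), and for Polk 1419501_at Lrp2 (0.988), Lamc1 (0.978) and Atp11b (0.976). For Apaf1 1450223_at they were Fam76b (0.973), Oga (0.971) and Cryz (0.963), and for Ccng1 1450017_at Crebrf (0.977), Cog4 (0.957) and Macf1 (0.957). The 3 genes that passed thus shared none of these neighbours.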

How the data were processed

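RNA of whole embryos was hybridised to 9 Affymetrix arrays. The deposited values are ratios per probe set; RMA was used per the submitters' processing notes, and how the ratio was formed is not stated there. Of 22690 probe sets, 64 controls included, 87.5% had a median ratio of exactly 1. Of the 22626 left without the controls, 20380 had 1 gene symbol in the platform annotation, 691 several and 1555 none listed. Values were log2 transformed with no pseudocount and fitted with limma 3.58.1 (R 4.3.3) as 5 group means over 9 arrays, with 4 residual and 5.42 prior degrees of freedom and Benjamini-Hochberg adjustment within each of 7 comparisons; the step was tested on simulated data. With 2 arrays against 2, an exact permutation test cannot give a two-sided p under 0.333, so none is reported. The named genes are all members, the pathway genes that passed in any comparison, the 2 probe sets of lowest p per list in Notch1 null against wild type, and the 3 genes most like each member probe set that passed. The members and lists were chosen with earlier results of these data known. Alternatives were quantile normalization, median centring, a pseudocount, leaving out dim probe sets, robust moderation, array weights, subsets of arrays, a replicate block, embryo sex, averaged probe sets, a looser threshold and each array left out.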

Additional observations from a re-analysis of the deposited data

Results flagged for a closer look

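The change of Polk 1449483_at in Notch1 null differed from that in Dll3 null: the direct limma comparison of both groups gave a log2 difference of 0.94 (adjusted p = 0.00589), with both Notch1 null arrays above both Dll3 null arrays. No group was large enough for a check of single arrays that stand apart.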

How the results depend on the processing

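The 98 member results, 5 of them calls, gave 1904 values under the alternatives. The 5 calls missed the threshold in 25 of these values and never turned their direction, other results passed it in 5, and results that were not calls changed sign in 67; the causes were not tested. In Notch1 null against wild type the 4 member calls became 2 after quantile normalization, in a fit of only these groups, in a fit of only wild-type and Notch1 arrays, and as 2 genes after averaging probe sets, and 0 to 4 when 1 array was left out. The share of all probe sets that passed, 9.45%, was 4.28% after quantile normalization, 14.6% at an adjusted p under 0.1 and 1.35% to 9.37% without 1 array. Against Dll3 null the 1 member call became 0 in a fit of only these groups and 3 at an adjusted p under 0.1. Against Notch1 het the member count was 1 at an adjusted p under 0.1. The shares of all probe sets that passed in these comparisons, 5.74% and 1.78%, were lower in every fit without 1 array. Their shares in the other alternatives are not given here.

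For the pathway lists, the 28 calls of Notch1 null against wild type ranged from 7 to 29 without 1 array. The 7 of Notch1 het became 0 in a fit of only these groups, 1 with embryo sex, 3 with only wild-type and Notch1 arrays, 20 at an adjusted p under 0.1 and 0 to 7 without 1 array. The 0 of Dll3 null became 1, and the 0 of Dll3 het 10, at an adjusted p under 0.1, and the Dll3 het count was 0 to 2 without 1 array. The 10 of Notch1 null against Notch1 het became 3 after quantile normalization, 0 in a fit of only these groups, 6 with embryo sex, 4 with only wild-type and Notch1 arrays, 23 at an adjusted p under 0.1 and 2 to 8 without 1 array. The 19 of Notch1 null against Dll3 null became 8 after quantile normalization, 2 in a fit of only these groups and 34 at an adjusted p under 0.1. For Notch1 het against wild type, and Notch1 null against Notch1 het or Dll3 null, the share of all probe sets also fell in every fit without 1 array. In the other alternatives these shares are not given here. A loss over all probe sets and a loss in the lists are therefore not told apart.

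Same-numbered arrays did not deviate together (correlations of -0.098 to 0.16, 1 of 6 over 0.1). With the replicate block the member counts stayed at 4 against wild type and 1 against Dll3 null, the pathway count of Notch1 null was 27, that against Notch1 het was 6, and that against Dll3 null was 15. The block raised the adjusted p of 5 calls against Dll3 null, Traf2, Ccng2 1448364_at, Rprm, Hltf and Ube2a, to between 0.054 and 0.0614. The number of arrays limits the precision of every value, and the signal over background is not known from ratios.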
